A study of Mus musculus with 14 samples.

Results

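Transcription factor binding was described at 10 genes that encode adhesion receptors and granule proteins of platelets: Itga2b, Itgb3, Gp1ba, Gp1bb, Gp5, Gp6, Gp9, Pf4, Vwf and Selp. They are 10 of 21631 protein-coding genes on 19 autosomes and chromosome X, were chosen by name, and were each taken with the gene body and 50 kb on either side, here called the locus. A peak belonged to a locus by its midpoint. The maps are ChIP-seq, which recovers DNA bound by a protein with an antibody, of Meis1, Lmo2, Tal1, Lyl1, Gata2, Runx1, the ETS factors Fli1, Erg and Spi1, the C/EBP factors Cebpa and Cebpb, and the repressors Gfi1 and Gfi1b, with 1 library and 1 peak list for each factor. All came from untreated Hoxb8-FL cells, which are mouse progenitors labelled as similar to lymphoid-primed multipotent progenitors and which grew with estradiol and FLT3. Such lines are kept from maturing by an introduced Hoxb8 that estradiol switches on, which all the libraries share. A rabbit IgG library is the only control, and no list of it was used here. With 1 library per factor from a single cell line, the data have no replicate check, so no test was made and no p-value is given. Peak lists hold positions without counts or heights, so depth is unknown, and whether the genes are transcribed in these cells, or the cells carry their labelled type, was not measured.

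Platelets are shed by megakaryocytes, and stick to injured vessels through surface glycoproteins. Itga2b and Itgb3 encode the 2 chains of the fibrinogen receptor (integrin alphaIIb beta3). Gp1ba, Gp1bb, Gp5 and Gp9 encode the complex that catches von Willebrand factor, the product of Vwf, and Gp6 encodes a collagen receptor. Pf4 (platelet factor 4) is a chemokine of the alpha granules, and Selp (P-selectin) is an adhesion molecule that moves from the granules to the surface. Vwf and Selp are also made by endothelial cells. Fli1 and Runx1 are known regulators of megakaryocyte genes, Lmo2 is a bridging protein that sits on DNA through partners such as Tal1 or Lyl1 and GATA factors, and Meis1 is a homeobox factor of stem cells and megakaryocytes.

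Most loci of the group held 11 or more of the 13 factors, and Gp6, Gp1bb and Gp5 did not. Lmo2 had a peak at 10 of the 10 loci, against 69.0% of all protein-coding loci. Meis1 had one at 9, against 50.6%, and Fli1 at 8, against 69.7%. Among the genes within the length range of the 10, these shares were 71.5% for Lmo2, 49.9% for Meis1 and 72.4% for Fli1. That range takes in 18836 of the 21631 genes, so it is a weak control for gene length. Itgb3 and Gp1ba held all 13 factors. Itga2b, Pf4, Vwf and Selp held the same 12, all but Gata2, and Gp9 held 11, without Gata2 and Gfi1b. Gp5 held 8, Gp1bb 6 and Gp6 only Lmo2 and Tal1. At least 11 factors were present at 7 of the 10 loci, against 33.2% of all loci, and at least 12 at 6, against 21.9%. The median was 12 factors, with a range of 2 to 13, against a median of 9 over all genes with quartiles of 4 and 11. The loci of the 10 genes were also richer in peaks of any kind, with a median of 46 peaks against 21 over all genes. The part of this in each factor's count was not tested.

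Apart from Gata2, peaks of the other 10 factors were also missing mostly at Gp6, Gp1bb and Gp5. Cebpa, Cebpb and Spi1 had peaks at 9 of the 10 loci (74.4%, 75.5% and 84.7% of all loci), every one except Gp6. Runx1 had peaks at 8 (56.8%), being without one at Gp5 and Gp6, and Tal1 at 8 (56.8%), being without one at Gp1bb and Gp5. Erg (51.7%), Gfi1 (49.1%) and Lyl1 (40.5%) each had peaks at 7 loci and none at Gp1bb, Gp5 and Gp6. Gfi1b (46.5%) had peaks at 7, with none at Gp1bb, Gp6 and Gp9. Gata2 had a single peak at each of Itgb3, Gp1ba and Gp5, which is 3 loci against 23.2% of all loci. In numbers of peaks, Meis1 had 5 at Itgb3, 4 at Gp9, 2 each at Itga2b, Gp5, Pf4, Vwf and Selp, and 1 each at Gp1ba and Gp1bb. Lmo2 had from 2 peaks at Gp6 to 11 at Itgb3, with a median of 4.5. Fli1 had from 0 at Gp1bb and Gp6 to 8 at Itgb3, with a median of 2.5. Itgb3 alone had the most peaks of 9 of the 13 factors. For Gfi1b it had 4, as many as Gp1ba, Pf4 and Selp. Erg had 5 peaks at Gp9 and 2 at Itgb3, Spi1 had 23 at Vwf and 17 at Itgb3, and Gata2 had no more than 1 anywhere.

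**Figure D1:**
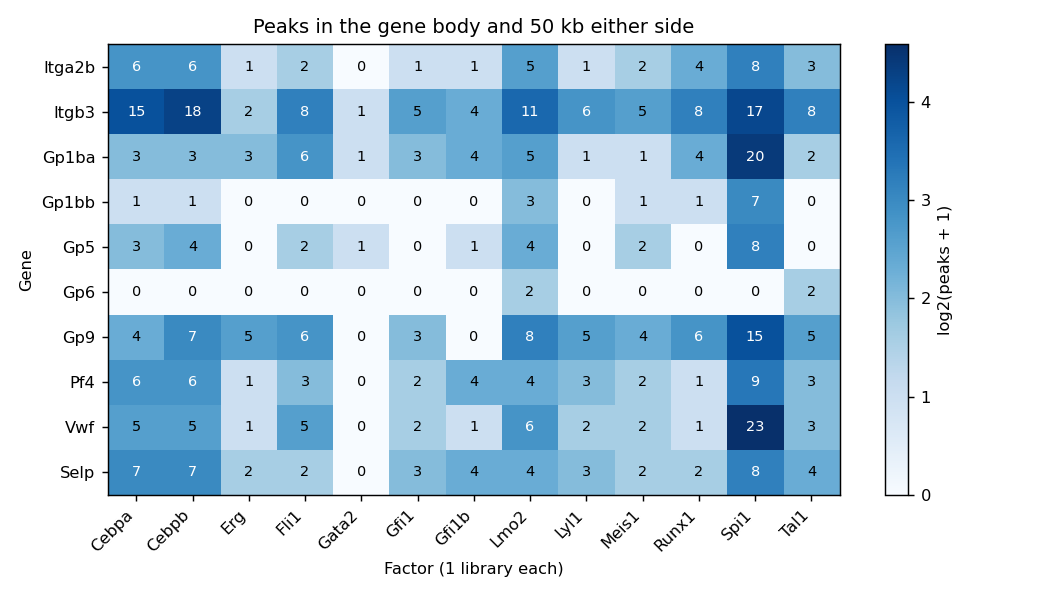
Number of peaks of each factor (columns, 1 library each) in the gene body and 50 kb either side of each gene (rows). Shade follows log2(peaks + 1). The Gp6 row is empty except for 2 Lmo2 and 2 Tal1 peaks, and the Itgb3 row holds 108 peaks.

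At the start sites themselves, Spi1 was the factor found most often, and every start site with Tal1 also had Lmo2 and Spi1. Start sites come from the RefSeq promoter table, which has 8 of the 10 genes. Lmo2 and Tal1 both had a peak midpoint within 1 kb of the start site of 4 of the 8, Itga2b, Gp1ba, Gp9 and Pf4, against 2.71% of 17274 protein-coding genes with a start site in the table. This count was added after the data were seen. Among all these start sites, 521 had Tal1 within 1 kb and 468 had both, so the pair adds little to Tal1 alone. By factor, Tal1 was there at 4 of 8 (3.02% of all start sites), Lyl1 at 3 (2.34%), Meis1 at 2 (2.11%), Lmo2 at 5 (19.5%), Fli1 at 3 (25.1%) and Spi1 at 6 (34.2%). Cebpa (19.2%), Cebpb (20.8%), Erg (12.9%) and Runx1 (17.7%) were there at 2 each, Gfi1 (8.17%) and Gfi1b (6.52%) at 1 each, and Gata2 (2.46%) at none. A peak of any factor was found at 6 of the 8, against 50.8% of all start sites, and at least 3 factors at 4, against 29.8%. Start sites of Gp6 and Selp had no peak within 1 kb, that of Gp5 had a Spi1 peak alone, and that of Gp1bb had Lmo2 and Spi1.

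**Figure D2:**
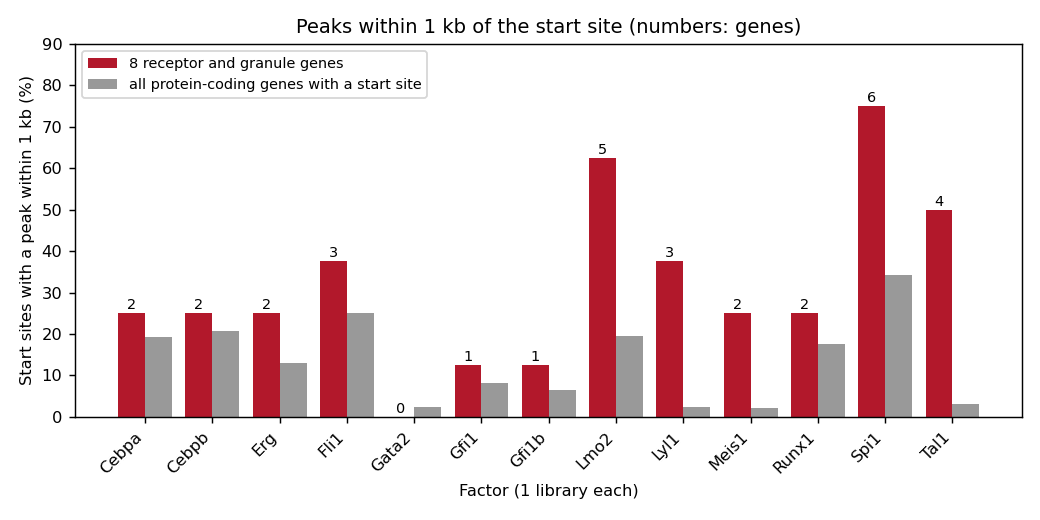
Percent of start sites with a peak midpoint within 1 kb, for each factor, in 8 of the receptor and granule genes (red, left, with the number of genes above the bar) and in all protein-coding genes with a start site in the table (grey, right). The 4 genes with Tal1 stand beside 3.02% of all genes and the 2 with Meis1 beside 2.11%.

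The 4 promoters with Lmo2 and Tal1 are shown because these peaks overlap them, though not every midpoint lies in the bases shown. At Itga2b the Lmo2 and Tal1 midpoints lie further upstream, 301 and 304 bases before the start. At Pf4 the Tal1 midpoint lies 67 bases after the start. Each is the 250 bases before the start site, 5′ to 3′ on the strand of the gene, from RefSeq (GRCm38.p6, the build of the peak lists, mm10). Itga2b is at chr11:102469884-102470133 on the minus strand, Gp9 at chr6:87777820-87778069, Gp1ba at chr11:70638872-70639121 and Pf4 at chr5:90772185-90772434, all 3 on the plus strand. Capitals mark matches on either strand to GGAAG, which is the core that ETS factors such as Fli1 read, to AGATAA, which GATA factors read, to TGTGGT, which RUNX factors read, to TGACAG, which MEIS factors read, or to CANNTG, the E-box that Tal1 and Lyl1 read with their partners. No marked match overlaps another.
Itga2b: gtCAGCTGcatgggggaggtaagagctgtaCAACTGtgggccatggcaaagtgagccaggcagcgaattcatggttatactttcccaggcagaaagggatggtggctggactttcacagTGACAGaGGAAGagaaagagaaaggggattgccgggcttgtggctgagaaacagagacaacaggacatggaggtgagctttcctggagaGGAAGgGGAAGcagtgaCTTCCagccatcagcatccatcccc
Gp9: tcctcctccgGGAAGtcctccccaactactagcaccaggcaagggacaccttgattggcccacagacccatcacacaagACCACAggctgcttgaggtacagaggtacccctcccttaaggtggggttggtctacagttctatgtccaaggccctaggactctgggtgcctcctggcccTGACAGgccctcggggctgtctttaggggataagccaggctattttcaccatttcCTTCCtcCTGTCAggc
Gp1ba: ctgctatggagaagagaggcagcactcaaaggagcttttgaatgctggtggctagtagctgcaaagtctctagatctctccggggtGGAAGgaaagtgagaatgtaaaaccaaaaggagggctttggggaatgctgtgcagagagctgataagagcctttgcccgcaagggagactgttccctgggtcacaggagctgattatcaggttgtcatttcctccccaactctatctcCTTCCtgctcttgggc
Pf4: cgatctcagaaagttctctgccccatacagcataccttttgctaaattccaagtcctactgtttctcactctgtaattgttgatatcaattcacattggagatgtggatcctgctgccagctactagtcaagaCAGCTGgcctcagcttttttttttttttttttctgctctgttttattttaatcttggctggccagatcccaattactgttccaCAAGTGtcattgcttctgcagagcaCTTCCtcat

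The regions of bound sequence, merged over all factors, cover 209 of the 250 bases shown for Itga2b, 250 for Gp9, 250 for Gp1ba and 235 for Pf4. Over the full window of the table, 250 bases before to 50 after the start, GGAAG was present in 8 of 8 promoters of the group, against 71.4% of all 32851 promoters in the table, and the longer CCGGAAG, which contains it, in 0 (8.86%). TGACAG was present in 4 (19.2%), namely Itga2b, Gp9, Gp5 and Selp. AGATAA was present in 3 (11.2%), namely Gp5, Gp6 and Pf4. In Pf4 it lies after the start site, so it is not in the sequence shown. TGTGGT was present in Gp9 alone (16.8%). The E-box CANNTG was present in 5 (72.3%), with 2 matches each in Itga2b and Pf4 and none in Gp9 and Gp1ba. The C/EBP form TTGCNNAA, not marked above, was present in 1 (10.8%) and the GFI1 form AAATCNC in 1 (11.7%). These are single spellings of each motif, and a match or its absence says nothing about whether a factor binds there.

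Itga2b (chr11 102453297 to 102469883, minus strand) had its most shared region directly before the start. The region, chr11 102469925 to 102470467, held 11 factors and was centred 0.313 kb upstream. Peak midpoints there ran from 242 bases upstream for Gfi1 to 385 for Cebpb, with Fli1 at 296, Lmo2 at 301, Tal1 at 304, Lyl1 at 306 and Meis1 at 331. Lmo2, Tal1 and Lyl1 thus lay within a few bases of each other, while Gfi1b and Gata2 had no peak in the region. A second Meis1 region, with Gfi1b, Lmo2, Runx1 and Tal1 but neither Fli1 nor Spi1, lay inside the gene at chr11 102461638 to 102462107, 8.01 kb from the start. The other 10 regions of the locus included none with Meis1. They included a region with 7 factors inside the neighbouring gene Grn and one with 4 inside Slc25a39.

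Itgb3 (chr11 104608000 to 104670476), which pairs with Itga2b in the receptor, had the most peaks, 108 in 31 regions. It held 4 of the group's 12 regions with 10 or more factors and 4 of its 11 regions with Meis1, Lmo2 and Fli1 together. A region of 11 factors lay inside the gene, 3.76 kb above the lower boundary (chr11 104611523 to 104611996), with midpoints of all 11 within 74 bp. A region of 9 factors lay 1.32 kb above the lower boundary (chr11 104608950 to 104609682), with midpoints spread over 333 bp. A pair of regions lay inside the neighbouring gene Myl4, a myosin light chain gene, 26.5 and 25.2 kb below Itgb3. The first (chr11 104581245 to 104581786) held 12 factors, all but Gata2, and the second (chr11 104582549 to 104583093) held 10. Another region with 10 factors, between the 2 genes and 11.4 kb below Itgb3, had no Meis1. The single Gata2 peak of the locus lay 0.701 kb below the gene with Cebpa and Cebpb.

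The 4 genes of the von Willebrand factor receptor complex held from 6 factors at Gp1bb to 13 at Gp1ba, and the most shared region held from 3 factors at Gp1bb to 11 at Gp9. Gp9 (chr6 87776131 to 87779786) had 9 factors on its start site, in a region (chr6 87777815 to 87778303) whose midpoints ran from 55 bases upstream for Lyl1 to 34 downstream for Runx1. Meis1 lay 4 bases downstream of the start, Fli1 2 bases upstream and Lmo2 18 upstream. The start site in the table lies inside the annotated Gp9 gene body, and the promoter shown for it has TGACAG at positions -71 to -66 and, on the other strand, at -9 to -4, counted from the start site as 0. A region of 11 factors with Meis1 lay 49.8 kb upstream, 2.28 kb outside Efcc1 (chr6 87728074 to 87728548), just within the locus. One of 10 factors without Meis1 lay 11.3 kb downstream inside Rab43.

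Gp1ba (chr11 70639102 to 70643986), the subunit that contacts von Willebrand factor, held all 13 factors in its locus but few of them at the gene. Its start site had Tal1, Lmo2 and Spi1, with midpoints 122, 79 and 55 bases upstream. The most shared region, with 10 factors including Gata2, lay 41.0 kb downstream inside Camta2 (chr11 70679916 to 70680409). Meis1 had 1 peak in the locus, alone, 5.28 kb downstream and inside Slc25a11. The locus holds 10 other protein-coding genes in whole or in part, and counting only peaks nearest to Gp1ba left 3 factors.

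Gp5 and Gp1bb had little shared binding. The most shared region at Gp5 (chr16 30307685 to 30310781) held Fli1, Lmo2, Meis1 and Spi1 and lay 6.22 kb downstream of the start (chr16 30304304 to 30304807), with Gp5 the nearest gene. A lone Meis1 peak lay 6.12 kb upstream inside Atp13a3. At Gp1bb (chr16 18620319 to 18622403) no region held more than 3 factors. The one with 3, Lmo2, Runx1 and Spi1, lay 4.34 kb upstream inside Septin5 (chr16 18626484 to 18626995). Lmo2 and Spi1 peaks lay 673 and 201 bases downstream of the Gp1bb start site, and its only Meis1 peak, alone, was 39.5 kb upstream.

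Gp6 (chr7 4362853 to 4397851), the collagen receptor, had no peak inside the gene and 3 regions in its locus. One held Lmo2 and Tal1, 27.3 kb upstream and 0.640 kb from Rdh13. One held Lmo2 alone, inside Rdh13, and one Tal1 alone, inside Ncr1. The depth of the libraries is unknown, so weaker binding at Gp6 cannot be told from none.

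**Figure D3:**
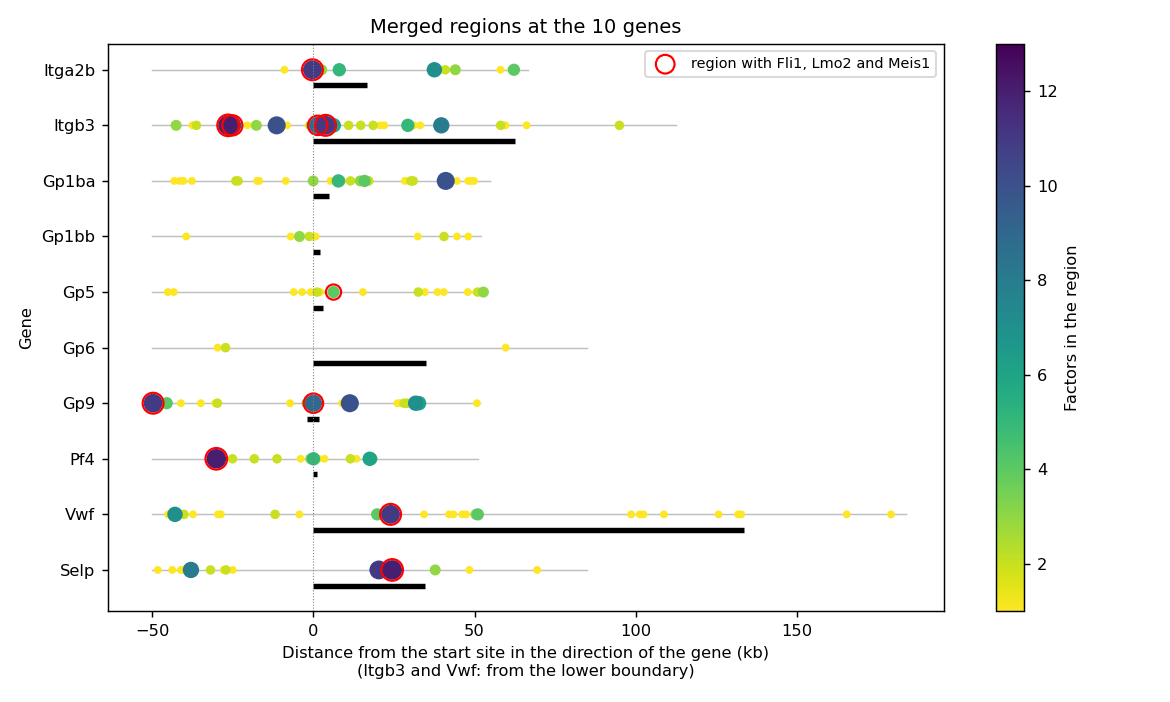
Merged regions (points) along each locus, by distance in kb from the start site in the direction of the gene, or from the lower boundary for Itgb3 and Vwf. Colour and size give the number of factors, black bars the gene, grey lines the locus and red rings the 11 regions with Fli1, Lmo2 and Meis1. The Itga2b and Gp9 starts carry ringed regions with 11 and 9 factors, and the Gp6 row has no region with more than 2.

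The 3 granule genes each had a region with 11 or 12 factors, Meis1 included, away from the start. For Vwf (chr6 125552948 to 125686679) it lay inside the gene, 23.9 kb above the lower boundary (chr6 125576613 to 125577130), and held 11 factors, all but Erg and Gata2. Of the 29 regions of this long locus, 17 held Spi1 alone. A lone Meis1 peak lay further inside the gene, 101 kb above the lower boundary. For Selp (chr1 164115264 to 164150026) the region lay inside the gene, 24.4 kb from the start (chr1 164139429 to 164139948), and held 12 factors, with midpoints within 120 bp. Another inside Selp, 20.3 kb from the start, held 11 factors without Meis1, whose own peak stood alone just beyond it, 20.9 kb from the start.

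Pf4 (chr5 90772435 to 90773383) sits among chemokine genes, with Ppbp, another granule chemokine, and Cxcl5 on one side and Cxcl3 and Cxcl15 on the other. Its most shared region (chr5 90742018 to 90742551) held 12 factors, lay 30.2 kb upstream, and was nearer to Cxcl5, at 17.0 kb, so it cannot be given to Pf4 by position. The start site carried Lmo2, Spi1, Fli1, Lyl1 and Tal1 in 1 region (chr5 90772200 to 90772701), with midpoints from 35 bases upstream for Lmo2 to 67 downstream for Tal1. Meis1 and Runx1 were absent from it. A further Meis1 region, with Cebpb, Gfi1 and Gfi1b, lay 18.0 kb downstream, closer to Cxcl3 (chr5 90790134 to 90790727). Directly before it, 17.5 kb downstream, lay a region with Fli1, Gfi1b, Lmo2, Lyl1, Spi1 and Tal1 (chr5 90789656 to 90790125). These regions almost touch, and only the merging rule keeps Meis1 apart from Fli1 and Lmo2 there.

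Meis1, Lmo2 and Fli1 peaks were in 1 region at 7 of the 10 genes (21.9% of all loci), and anywhere in the locus at 8 (41.7%). There were 11 such regions, 4 at Itgb3, 2 at Gp9 and 1 each at Itga2b, Gp5, Pf4, Vwf and Selp. When peaks up to 200 bp apart were also merged, there were 13. At Gp1ba, Fli1 and Lmo2 shared regions but Meis1 had its only peak alone, and Gp1bb and Gp6 had no Fli1. Of the 11, 10 held 9 or more factors, the exception being the 4-factor region at Gp5, whereas 59.8% of the 3964 regions with the 3 factors in the genome held as many. All 11 held Spi1, which is in 84.4% of these regions in the genome. Of the 11, 10 held Tal1 (82.8%), Cebpb (79.9%), Lyl1 (68.5%) and Runx1 (59.3%), and none held Gata2 (3.66%). The gene itself contained 5 of them, and it was the nearest protein-coding gene for 7.

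**Figure D4:**
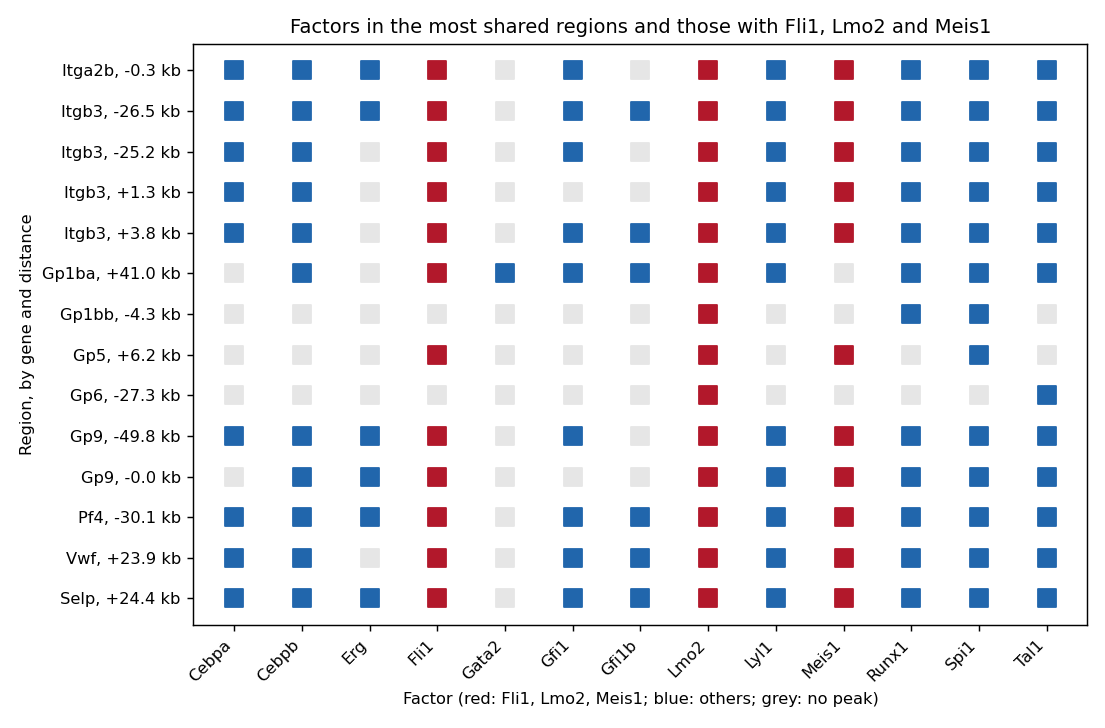
Factors (columns) with a peak (coloured square) or none (grey) in the most shared region of each gene and in all regions with Fli1, Lmo2 and Meis1 (red squares), with the distance in kb from the start site, or from the lower boundary for Itgb3 and Vwf. Lmo2 fills its column, which the choice of regions fixes in advance for those with Fli1, Lmo2 and Meis1. Gata2 is present only in the Gp1ba region at 41.0 kb.

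Meis1 had 21 regions at the group, all told. It was alone in 5 (41.5% of its 13727 regions in the genome) and shared 11 with both Fli1 and Lmo2 (28.9%). Lmo2 had 52 regions, of which 7 were Lmo2 alone (7.89% of all Lmo2 regions), 34 held Spi1 (67.2%), 27 held Tal1 (49.1%), 27 Fli1 (55.6%) and 12 Meis1 (20.6%). Fli1 had 34 regions and none alone (3.64% of all Fli1 regions). Of these, 27 held Lmo2 (67.4%), 27 Spi1 (78.5%) and 12 Meis1 (20.1%). Fli1 lay with its close relative Erg in 14 (39.2%), and the loci of Itga2b, Pf4 and Vwf had 1 Erg peak each, beside 2 Fli1 peaks at Itga2b, 3 at Pf4 and 5 at Vwf.

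Merging gave 181 regions in the 10 loci, 46 of them inside the gene, and the share of them with each factor was set beside that over the genome. Meis1 was in 11.6% (95% interval 7.33 to 17.2) against 11.3% of all 121980 merged regions. Fli1 was in 18.8% (13.4 to 25.2) against 18.1%, and Lmo2 in 28.7% (22.3 to 35.9) against 21.9%. Spi1 was in 63.5% (56.1 to 70.5) against 62.6%. A single factor was present in 54.1% (46.6 to 61.6), 98 regions, against 56.3%, and 66 of these held Spi1 alone, a kind that makes up 36.6% of all regions. Runx1 was in 14.9% (10.1 to 21.0) against 9.60% and Lyl1 in 11.6% (7.33 to 17.2) against 7.30%. Tal1 was in 16.6% (11.5 to 22.8) against 14.1%, Cebpa in 27.6% (21.3 to 34.7) against 28.7% and Cebpb in 31.5% (24.8 to 38.8) against 30.9%. Gfi1 and Gfi1b were each in 10.5% (6.44 to 15.9), against 7.77% for Gfi1 and 7.11% for Gfi1b. Erg was in 8.29% (4.71 to 13.3) against 7.39%, and Gata2 in 1.66% (0.343 to 4.77) against 2.64%. Regions with 10 or more factors made up 6.63% (3.47 to 11.3), 12 in number, against 2.32%, and those with Meis1, Lmo2 and Fli1 made up 6.08% (3.07 to 10.6) against 3.25%. Itgb3 alone gave 11 of the 52 Lmo2 regions, 8 of the 27 with Runx1 and 6 of the 21 with Lyl1. Intervals are exact binomial (Clopper-Pearson), cover counting error only, and treat regions of 1 gene as separate, which they may not be, so no call is made from them. A region with 10 or more factors was present at 7 of the 10 loci, against 17.4% of all loci. All 12 held Fli1 (99.5% of the regions with 10 or more factors in the genome), Lmo2 (99.6%), Tal1 (98.7%), Cebpb (97.8%), Lyl1 (95.2%), Spi1 (93.3%), Runx1 (90.4%) and Gfi1 (84.2%), so for most of these factors the count is close to what such regions hold anywhere. Meis1 was in 8 of the 12 (64.0%).

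The member's own neighbourhood limits these counts. Of the 181 regions, the gene of the group was the nearest protein-coding gene for 62, and of the 12 with 10 or more factors for 5. In these 5 cases the regions were at the Itga2b start, inside Itgb3, inside Vwf and, in 2 places, inside Selp.

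Other platelet genes were counted in 4 lists by role. Numbers of factors are given for the 3 genes of each list with the most, so they are high by choice. Of 46 genes, Lmo2 had a peak at 42 (69.0% of all loci), Fli1 at 41 (69.7%) and Meis1 at 38 (50.6%). A region with all 3 was present at 27 of these loci (21.9% of all loci). Among 18 receptor and signalling genes, Lmo2 and Fli1 had peaks at 18 and Meis1 at 15. Syk, a kinase downstream of the collagen receptor, Fcer1g, the chain that signals for it, and Fermt3, an integrin activator, held all 13 factors. Of 13 granule cargo and biogenesis genes, Lmo2 and Meis1 had peaks at 11 and Fli1 at 10. Nbeal2, needed for alpha granules, held 13 factors and 2 regions with Meis1, Lmo2 and Fli1, and Slc35d3 and Srgn held 12. The fewest at any gene of this list was 2. Neighbours in the genome appear in both counts. Ppbp in this list shares 14 of its 15 regions with the Pf4 locus, and F5 shares 6 of its 11 regions, both those with 10 or more factors among them, with the Selp locus. Cd9, of the receptor and signalling list, shares 8 of its 33 regions with the Vwf locus. Of 5 cytoskeleton genes, Lmo2 had peaks at 5, with Fli1 and Meis1 at 4, and Myh9, Tpm4 and Flna held 13, 12 and 10 factors. Of 10 transcription factor genes of megakaryocytes, 4 of them encoding factors assayed here, Fli1 had peaks at 9 and Lmo2 and Meis1 at 8. Runx1, Fli1 and Nfe2 held all 13.

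Genes of other blood lineages were counted in the same way. Over all loci, the shares with a peak were 69.0% for Lmo2, 69.7% for Fli1 and 50.6% for Meis1. At 10 genes of neutrophil granule proteins, Lmo2 and Fli1 had peaks at 10 and Meis1 at 8. A region with 10 or more factors was present at 6 (17.4% of all loci), and one with Meis1, Lmo2 and Fli1 at 4 (21.9%). Mpo, Elane and Prtn3, proteins of the primary granules, each held 13 factors. Overlap between loci of the same list is not given here, so genes of a list may share regions and not be separate loci. Elane and Prtn3 had 100 and 99 peaks, with 1 region of 10 or more factors each. At 9 red cell genes, Fli1 had peaks at 8, Lmo2 at 7 and Meis1 at 5, with a region of 10 or more factors at 1 and with the 3 factors at 3. Epor and Slc4a1 held 11 factors each, and Slc4a1 shares 3 of its 16 regions with the Itga2b locus. The median was 12.5 factors for the neutrophil list and 9 for the red cell list, against 12 for the 10 genes and 11.5 for the other platelet genes. None of these differences was tested.

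**Figure D5:**
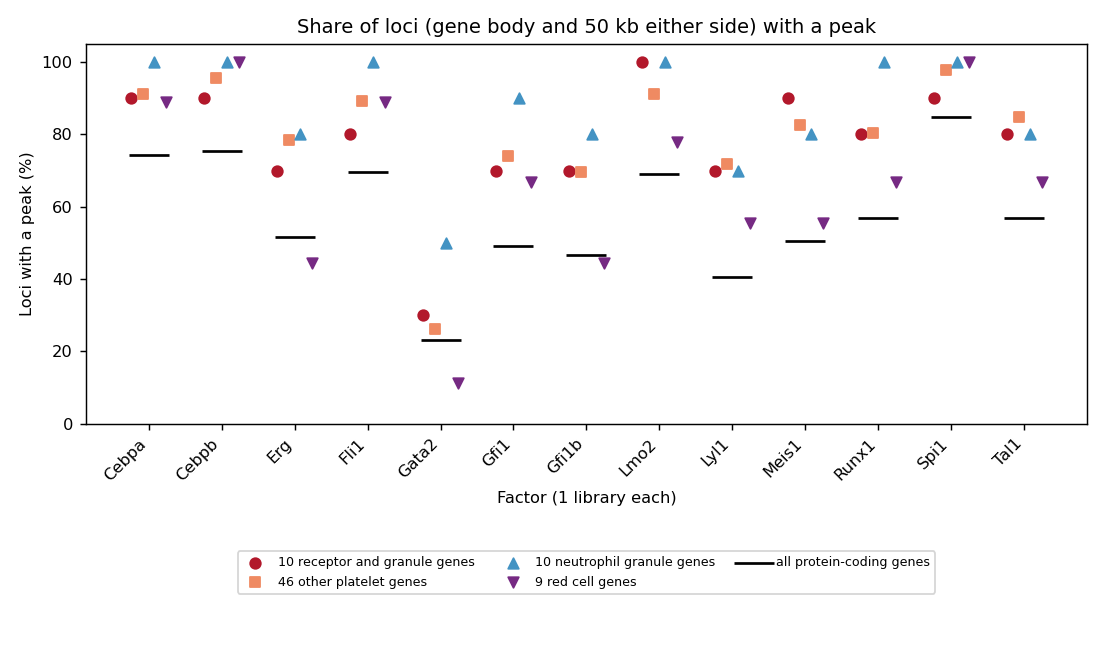
Percent of loci with a peak of each factor for 10 receptor and granule genes (circles), 46 other platelet genes (squares), 10 neutrophil granule genes (upward triangles), 9 red cell genes (downward triangles) and all protein-coding genes (bars). Circles lie above the bar for each factor, and so do squares and upward triangles. The Lmo2 circle and upward triangle are both at 100%.

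Genes with the most similar numbers of peaks over the 13 factors, on other chromosomes and by the sum of absolute differences, were sought for the 3 genes with the most factors, taking more peaks first where the number of factors was equal. Nearest to Itgb3 (108 peaks) were Dse and Tpst2, each 14 peaks apart, and Gm9949, 16 apart. Nearest to Gp1ba (56 peaks) were Acacb, Hspbp1 and Lenep, each 12 apart. Nearest to Vwf (56 peaks) were Plb1 at 6, Pik3r5 at 9 and Kcnj12 at 10.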

How the data were processed

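The authors deposited 1 peak list for each of 13 factor libraries, with 3 columns (chromosome, start, end) on mm10 and no score. Every peak is 400 bp wide. Bowtie2, MACS2 and bedtools were used, per the submitters' processing notes, and versions, thresholds and the use of the IgG library are not given there. Cells were fixed for 10 min in 0.4% or 1% formaldehyde and sonicated for 7 min, per the labels' protocols, and which library had which fixation is not given there. Fixation can change how much indirect binding a library holds, and depth and threshold can change how many peaks it gives, so list lengths were not compared. Lines outside the 19 autosomes and chromosome X, 3 in all, were left out.

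Peaks that overlapped or touched were merged over all lists with Python 3.11.15, pandas 2.3.3 and numpy 2.4.6, and the region and locus counting was tested on simulated data. Loci, the gene bodies extended by 50 kb in each direction, came from the RefSeq gene table of GRCm38.p6, which has no exons, so exon, intron and untranslated parts were not told apart. Distances are from the centre of a region. Strand and start site come from the RefSeq promoter table, which has 8 of the 10 genes, and for Itgb3 and Vwf distances are from the lower boundary. Where a gene has several start sites there, the first listed was used. Percentages of all loci, regions or start sites are given beside the counts as background, with no test.

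The genes, gene lists, motifs and settings were chosen with earlier results of these data known, and the count at start sites was added after the lists were seen. Named are the 10 genes, in each locus the most shared region (among equals, the one nearer to the gene, then the one at the lower coordinate) and those with Meis1, Lmo2 and Fli1, and the 3 genes of each other list with the most factors (ties by more peaks, then by alphabet). One gene that this rule names in the red cell list is not reported here. Other regions were picked after their values were seen. Ahsp, of the red cell list, was not found in the gene table. Alternatives changed the window, merging, rule of assignment, lines used and lists used.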

Additional observations from a re-analysis of the deposited data

How the results depend on the processing

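Of 81 values of the main results under an alternative, 69 stayed within 1.5 times the main count, or inside the interval of a share, and 12 moved. With 10 kb either side, 76 regions were left, 7 of them with Meis1, Lmo2 and Fli1, and Lmo2 was in 36.8% of regions. Meis1, Lmo2 and Fli1 then had peaks at 7, 9 and 8 of the 10 loci (26.9%, 49.5% and 51.4% of all loci). With 100 kb there were 286 regions, and each of these 3 factors had peaks at 10 loci (67.3%, 77.0% and 77.6%). When each list was cut to its first 50% of lines, whose order has no stated meaning, there were 93 regions, 5 of them with the 3 factors, and 3 loci with a region of 10 or more factors. Meis1 then had peaks at 6 of the 10 loci, and Lmo2 and Fli1 at 7 each. Counting only regions nearest to the gene left 7 with the 3 factors, and without Spi1 there were 115 regions, with Fli1 in 29.6%, Lmo2 in 45.2% and Meis1 in 18.3%. Why these values differ from the main ones was not tested. Lmo2 and Tal1 were near the start sites of 4 genes at 0.5 kb, at 2 kb and with the first 50% of lines, alternatives chosen after seeing the data. Of 117 values for single genes, factors or motifs, 25 moved. The number of factors was 0 with 10 kb and 10 with 100 kb at Gp6, 13 with 100 kb and 3 with the first 50% of lines at Gp5, and 11 with 100 kb and 1 with the first 50% of lines at Gp1bb. Counting only peaks nearest to the gene moved 9 of the 25, the most of any alternative. There were then 0 factors at Gp6, 2 at Gp1bb, 3 at Gp1ba and 7 at Pf4. The median fell from 12 to 8 factors, which lies at the limit of 1.5 times, so it was counted among the main results that stayed. Meis1 then had peaks at 6 loci, Fli1 at 7 and Lmo2 at 9. Cebpa and Runx1 had peaks at 5 under this rule, Erg and Gfi1 at 4 and Gata2 at 1. Shares over all genes or regions were not computed for this rule, the first 50% of lines or the lists without Spi1. Shares given for the main counts do not apply to these alternatives. Depth is unknown, so absence of a peak is not absence of binding. No paired analysis was possible because each factor has 1 library.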
